A study of Arabidopsis thaliana with 10 samples.

Results

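Seedlings expressing DIG1 were set directly against seedlings expressing DIG2, a pair of related Arabidopsis transcription regulators. The comparison used the 4 dark-grown libraries of these lines out of the 10 libraries of the series. The DIG1 group held 2 libraries of whole Col-0 seedlings of the DIG1 line, aged 3 d, kept in the dark and given 10 µM dexamethasone for 4 h. The DIG2 group held 2 libraries of the DIG2 line with the same accession, age, darkness, dose and time. A GFP line treated in the same way gave 2 more libraries, whose levels are printed beside the others. They took no part in the main test and entered only the alternative fit of 6 libraries. All 6 libraries came from dexamethasone-treated seedlings. The labels give neither the construct, its promoter nor the number of independent lines. They do not say that replicates are separate cultures, and the p-values therefore reflect the spread of these libraries alone, which may be technical. The question was which genes separate the lines at a matched dexamethasone dose and time.

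DIG genes encode nuclear proteins that respond to abscisic acid (ABA), the hormone of drought, seed dormancy and growth arrest. Dexamethasone is a synthetic glucocorticoid with no plant target of its own, used to switch on transgenes placed under a glucocorticoid-responsive system. A seedling grown in darkness is etiolated: its hypocotyl elongates through auxin, brassinosteroid and wall-loosening enzymes, PIF factors hold back greening, and protochlorophyllide is stored until light lets the POR enzymes reduce it.

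Values are RPKM, read numbers scaled to gene length and library size, and tests were run on log2(RPKM + 0.5), a scale that understates the change of low genes. Recovered whole reads came to 9956171 and 10210385 in the DIG1 libraries, 15793912 and 13116413 in the DIG2 libraries, and 13635544 and 12709948 in the GFP libraries. Replicates of a line correlated across genes at a Pearson r between 0.987 and 0.992, genes being no independent replicates. Each pair differed by more than sampling noise, the chi-square divided by its degrees of freedom lying between 4.90 and 9.71. Highly expressed genes sat lower in the DIG1 line as a body: over 338 genes with a mean of at least 256 RPKM the median log2 difference was −0.197, against −0.0001 over all 17371 genes. Leaving out DIG1 replicate 2 gave −0.042 and leaving out DIG1 replicate 1 gave −0.341, so either library moves its size. Quantile scaling gave −0.001, but it sets every library to the same distribution of values and so cannot decide on this shift.

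Each line had a high level of the gene it is named for. AT3G48510, the locus known as DIG1 (chromosome 3, 17967354 to 17968590, minus strand, TAIR10.1), had 1716 and 1438 RPKM in DIG1, against 1.90 and 1.54 RPKM in DIG2 and 0.551 and 1.43 RPKM in GFP. AT5G50360, known as DIG2 (chromosome 5, 20505089 to 20506354, minus strand), had 2.54 and 1.23 RPKM in DIG1, against 4879 and 2685 RPKM in DIG2 and 0.876 and 0.768 RPKM in GFP. Each gene was thus at a trace level in the line of the other. Their levels were unequal, with means of 1577 RPKM for the DIG1 gene and 3782 RPKM for the DIG2 gene in their own lines. The part of this unequal level in the differences between the lines was not tested. The titles of the DIG1 samples print a different locus, AT3G45810, which is not listed in the table. Both are annotated with 1 exon, and the coding sequences were identical at 67.3% of 826 aligned bases, with a longest shared run of 21 bases between the transcripts. AT5G63350, which the RefSeq annotation gives as the closest match of DIG1, had 5.31 and 5.88 RPKM in DIG1 and 4.68 and 7.04 RPKM in DIG2. Its libraries overlapped, and the interval of its log2 difference ran from −0.48 to 0.40 (limma adjusted p = 0.955). Beside the DIG1 locus, CYP94B3, which encodes an enzyme that oxidizes jasmonoyl-isoleucine, was lower in the DIG1 line, at 2.43 and 3.21 RPKM against 5.86 and 5.53 RPKM in DIG2 (limma adjusted p = 0.0454), a call lost without DIG1 replicate 1 or DIG2 replicate 1. The nearest measured gene on the other side, PDE312, and both neighbours of the DIG2 locus did not pass the test.

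Most genes stood close together in the lines, and more of those that separated were lower in the DIG1 line than higher. Of 17371 genes, 65 were higher in DIG1 than in DIG2 (0.374% of genes tested) and 206 were lower (1.19%), 271 together (1.56%), by limma with a Benjamini-Hochberg adjusted p under 0.05. Of these, 14 were at least 2-fold higher (0.0806%) and 52 at least 2-fold lower (0.299%). The counts include the DIG genes themselves. Both libraries of 1 line stood beyond both of the other for 46.0% of genes, so a lack of overlap is common here and carries little by itself. At an unadjusted p under 0.05 there were 2654 genes. The interval of the log2 difference lay within 2-fold in either direction for 95.41% of genes. Of the calls, 22 of 65 higher and 100 of 206 lower were kept when any 1 of the 4 libraries was left out. The number higher came to 159 and 188 without DIG2 replicate 1 and 2, and the number lower to 328 without DIG2 replicate 1.

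**Figure D1:**
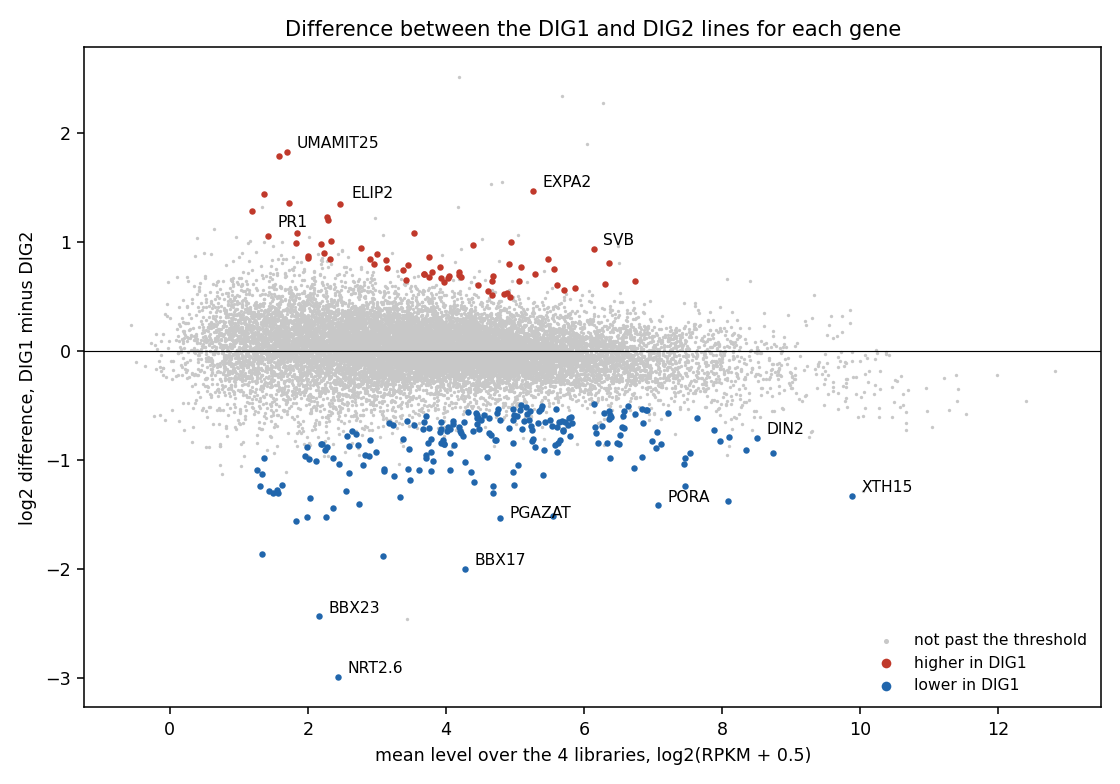
Log2 difference, DIG1 minus DIG2, against the mean level over the 4 libraries on the log2(RPKM + 0.5) scale, 1 point a gene, with the DIG1 and DIG2 genes left out of the picture. Red points were higher and blue points lower in DIG1 at a limma adjusted p under 0.05, and NRT2.6 lies lowest, at −2.996.

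Among genes with a symbol, the largest falls in the DIG1 line relative to DIG2 were in a nitrate transporter gene, a pair of B-box genes and genes of cell wall, auxin and greening. NRT2.6, of the NRT2 family of high-affinity nitrate transporters, had 0.803 and 0.584 RPKM in DIG1, against 10.5 and 7.70 RPKM in DIG2 and 0.593 and 0.265 RPKM in GFP. The DIG2 libraries stood apart from both other lines, and the log2 difference was −2.996 ± 0.21 (SE, limma adjusted p = 0.00029). BBX23, a B-box factor of the light response, had 0.755 and 1.03 RPKM in DIG1, against 6.57 and 7.48 RPKM in DIG2 and 38.5 and 35.2 RPKM in GFP (log2 difference −2.44 ± 0.20, limma adjusted p = 0.000685). BBX17 had 6.28 and 8.15 RPKM in DIG1, against 34.02 and 26.9 RPKM in DIG2 and 58.8 and 69.6 RPKM in GFP (−2.005 ± 0.16, limma adjusted p = 0.000648). In both B-box genes the 3 lines formed separate levels, with DIG1 lowest and GFP highest. PGAZAT, a polygalacturonase that cuts pectin in abscission zones, had 11.8 and 13.8 RPKM in DIG1 against 56.9 and 25.3 RPKM in DIG2, whose replicates were themselves far apart, and 13.05 and 11.8 RPKM in GFP. GH3.1, of the family that conjugates auxin to amino acids, had 1.43 and 1.604 RPKM in DIG1 against 6.54 and 4.28 RPKM in DIG2. The DIG1 line was level with GFP for both PGAZAT and GH3.1, and DIG2 was above it.

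The other 10 genes of this group had log2 differences between −1.44 and −1.20 with limma adjusted p between 0.00193 and 0.0458. They were COR413IM1, a cold-regulated protein of the chloroplast inner envelope; PORA, the protochlorophyllide reductase of dark-grown seedlings; XTH15, a xyloglucan enzyme; TPS13, a terpene synthase; RSL4, a bHLH factor that drives root hair growth; CIPK13, a kinase; MES16, a methylesterase; JAZ4, a jasmonate repressor; NRT1.8, which unloads nitrate from the xylem; and IAA20, an Aux/IAA protein. PORA had 81.5 and 64.4 RPKM in DIG1, 189 and 201 RPKM in DIG2 and 879 and 981 RPKM in GFP. IAA20 had 13.6 and 11.2 RPKM in DIG1, 27.5 and 30.7 RPKM in DIG2 and 48.4 and 44.8 RPKM in GFP. In both, DIG1 was lowest and GFP highest, as in the B-box genes. CIPK13 had 1.04 and 0.887 RPKM in DIG1 against 2.77 and 3.16 RPKM in DIG2 and 1.06 and 1.07 RPKM in GFP, so DIG2 alone stood apart. The calls of PGAZAT, TPS13 and JAZ4 were lost without DIG1 replicate 1, that of COR413IM1 without DIG1 replicate 2, and that of XTH15 without either DIG2 replicate. XTH15 was among the highly expressed genes, which sat lower in DIG1 as a body. Its own call was kept under quantile scaling, which removes that shift by design. Among called genes that carry no symbol, named here after their values were seen, AT4G32950, a PP2C-type phosphatase, had 3.103 and 3.09 RPKM in DIG1, against 14.8 and 10.9 RPKM in DIG2 and 12.6 and 12.0 RPKM in GFP, and AT5G57760 had 24.0 and 23.6 RPKM in DIG1, against 71.4 and 66.9 RPKM in DIG2 and 125 and 126 RPKM in GFP.

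Among genes with a symbol, the largest rises in the DIG1 line relative to DIG2 were in an amino acid exporter gene, an expansin, defence genes and genes of the light response. UMAMIT25, of a family of amino acid exporters, had 5.45 and 3.70 RPKM in DIG1, against 0.739 and 1.11 RPKM in DIG2 and 2.08 and 2.53 RPKM in GFP. GFP lay between the lines, and the log2 difference was 1.82 ± 0.24 (SE, limma adjusted p = 0.00775). EXPA2, a wall-loosening expansin, had 70.2 and 42.3 RPKM in DIG1, against 19.0 and 19.7 RPKM in DIG2 and 25.2 and 11.9 RPKM in GFP (1.47 ± 0.19, limma adjusted p = 0.00755). Here the DIG1 libraries stood apart, though their own replicates differed. PR1, the marker of the salicylic acid response, had 4.26 and 4.23 RPKM in DIG1, against 1.02 and 1.78 RPKM in DIG2 and 0.286 and 0.745 RPKM in GFP (1.35 ± 0.23, limma adjusted p = 0.0208). ELIP2, an early light-induced protein of photoprotection, had 7.31 and 7.53 RPKM in DIG1, against 2.56 and 2.66 RPKM in DIG2 and 19.7 and 20.7 RPKM in GFP (1.35 ± 0.16, limma adjusted p = 0.00638). GSTF6, a glutathione transferase whose reads may be shared with its close copy GSTF7, had 2.82 and 2.65 RPKM in DIG1 against 0.717 and 0.957 RPKM in DIG2.

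The other 10 genes of this group had log2 differences between 0.84 and 1.22, with limma adjusted p between 0.00626 and 0.0409. They were STH, COL2, CCA1, KIN2, MLP423, SVB, CNGC12, RWP1, VTC4 and MRL7-L. CCA1, a morning factor of the clock, had 5.11 and 5.98 RPKM in DIG1, against 2.50 and 2.61 RPKM in DIG2 and 8.91 and 8.52 RPKM in GFP. KIN2, a cold- and ABA-induced gene, had 3.07 and 3.16 RPKM in DIG1, against 1.34 and 1.16 RPKM in DIG2 and 14.95 and 20.7 RPKM in GFP. In ELIP2, CCA1 and KIN2 the lowest line was DIG2 and the highest GFP. SVB followed the same order, at 97.5 and 85.6 RPKM in DIG1, 38.0 and 59.1 RPKM in DIG2 and 191 and 192 RPKM in GFP. VTC4, an enzyme of ascorbate synthesis, and RWP1, which adds ferulate to suberin, differed otherwise, with both DIG1 libraries above those of both other lines. Without DIG1 replicate 1 the calls of GSTF6, COL2, KIN2, SVB, CNGC12 and MRL7-L were lost, and without DIG1 replicate 2 those of STH, COL2, KIN2, CCA1, CNGC12 and RWP1. That of CNGC12 was also lost without DIG2 replicate 1, and those of COL2 and KIN2 without DIG2 replicate 2.

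**Figure D2:**
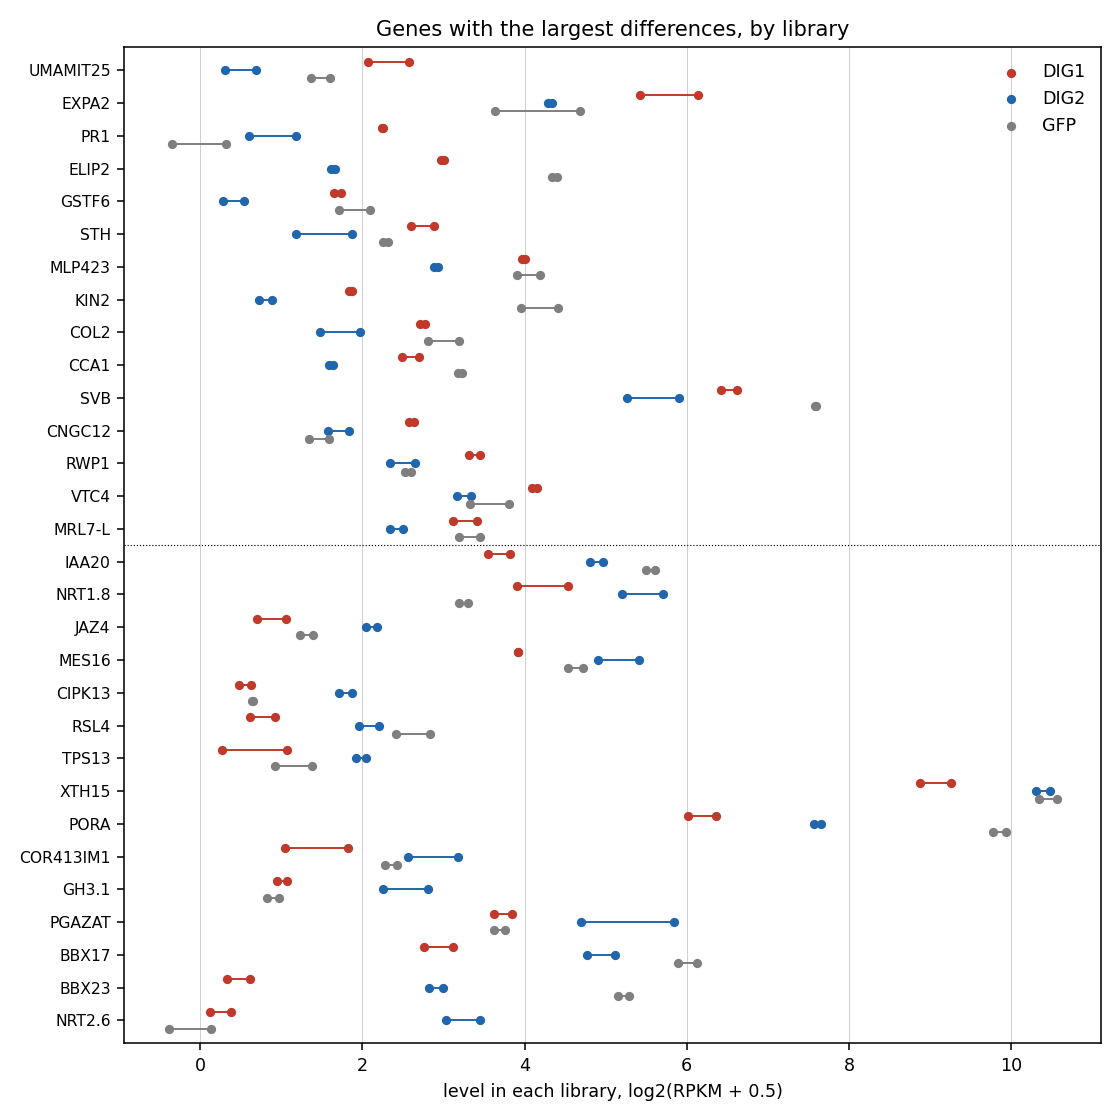
Level of each of the 30 named genes in every library on the log2(RPKM + 0.5) scale; a line joins the 2 replicates of DIG1 (red), DIG2 (blue) and GFP (grey), with genes higher in DIG1 above the dotted line and genes lower in DIG1 below it. BBX23, BBX17, PORA and IAA20 run DIG1, DIG2, GFP from left to right, and in NRT2.6 and CIPK13 only DIG2 is displaced.

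The windows of 300 bases upstream of the annotated gene starts were searched for 10 motifs on both strands, and 17171 genes had a window once the DIG genes were set aside. The G-box CACGTG, the core bound by PIF, HY5 and ABA-related bZIP factors, was in 23.8% of 63 genes higher in DIG1, in 8.29% of 205 lower genes and in 7.89% of all windows. The ABA response element ACGTGNC, whose matches overlap many G-boxes, was in 27% of the higher genes, 10.7% of the lower genes and 10.4% of all windows. The I-box GATAAG was in 9.52%, 20% and 14.9%, and the dehydration element core GCCGAC in 7.94%, 1.46% and 3.37% of the same sets. The evening element AAAATATCT was in 4.76%, 2.93% and 2.85%, the W-boxes TTGACC in 17.5%, 8.78% and 13.9% and TTGACT in 15.9%, 14.1% and 21.3%, and the auxin response element TGTCTC in 12.7%, 13.7% and 12.6%. CATGTG was in 17.5%, 16.6% and 12.8%, and CACGCG in 7.94%, 2.93% and 3.31%. These shares are descriptions without a test, and a match is not a bound site. Of the 30 genes with the largest differences, 5 held a G-box, and the windows of 4 of them are shown because they carry the motif described here. Of these 4, EXPA2 and CCA1 were higher in DIG1 and COR413IM1 and IAA20 lower. The windows lie at chr5:1568394-1568693 (plus strand), chr2:19245291-19245590 (plus), chr1:10289667-10289966 (minus) and chr2:19307414-19307713 (plus) of TAIR10.1, from RefSeq, each read 5′ to 3′ towards its gene start, with the G-box in capitals.
EXPA2: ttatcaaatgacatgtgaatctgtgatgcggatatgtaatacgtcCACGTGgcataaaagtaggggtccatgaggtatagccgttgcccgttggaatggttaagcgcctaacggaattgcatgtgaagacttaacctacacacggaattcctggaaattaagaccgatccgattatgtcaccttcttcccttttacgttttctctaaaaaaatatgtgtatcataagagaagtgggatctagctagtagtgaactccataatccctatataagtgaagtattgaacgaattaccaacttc
CCA1: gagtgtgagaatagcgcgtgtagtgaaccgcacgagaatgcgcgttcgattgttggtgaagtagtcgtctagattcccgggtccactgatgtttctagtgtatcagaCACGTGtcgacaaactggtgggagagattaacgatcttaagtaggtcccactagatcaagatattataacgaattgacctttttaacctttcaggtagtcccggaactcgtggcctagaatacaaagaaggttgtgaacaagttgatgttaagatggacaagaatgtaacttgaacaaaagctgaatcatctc
COR413IM1: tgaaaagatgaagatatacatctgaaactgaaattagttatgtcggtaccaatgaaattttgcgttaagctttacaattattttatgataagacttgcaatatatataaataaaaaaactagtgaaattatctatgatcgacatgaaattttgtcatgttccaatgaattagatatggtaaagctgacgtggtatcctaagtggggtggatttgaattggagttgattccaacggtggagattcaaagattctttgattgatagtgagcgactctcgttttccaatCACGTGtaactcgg
IAA20: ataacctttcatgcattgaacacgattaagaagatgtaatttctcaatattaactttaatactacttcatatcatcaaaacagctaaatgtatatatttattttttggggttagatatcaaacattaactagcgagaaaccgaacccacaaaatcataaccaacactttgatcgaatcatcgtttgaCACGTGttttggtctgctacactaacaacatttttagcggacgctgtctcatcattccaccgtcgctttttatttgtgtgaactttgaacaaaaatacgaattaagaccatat
Counted from the gene start, the G-box begins at base −255 in EXPA2, −193 in CCA1, −14 in COR413IM1 and −113 in IAA20. Other called genes with a G-box included PSB28 and OHP, of the photosynthetic membrane, among the higher ones.

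**Figure D3:**
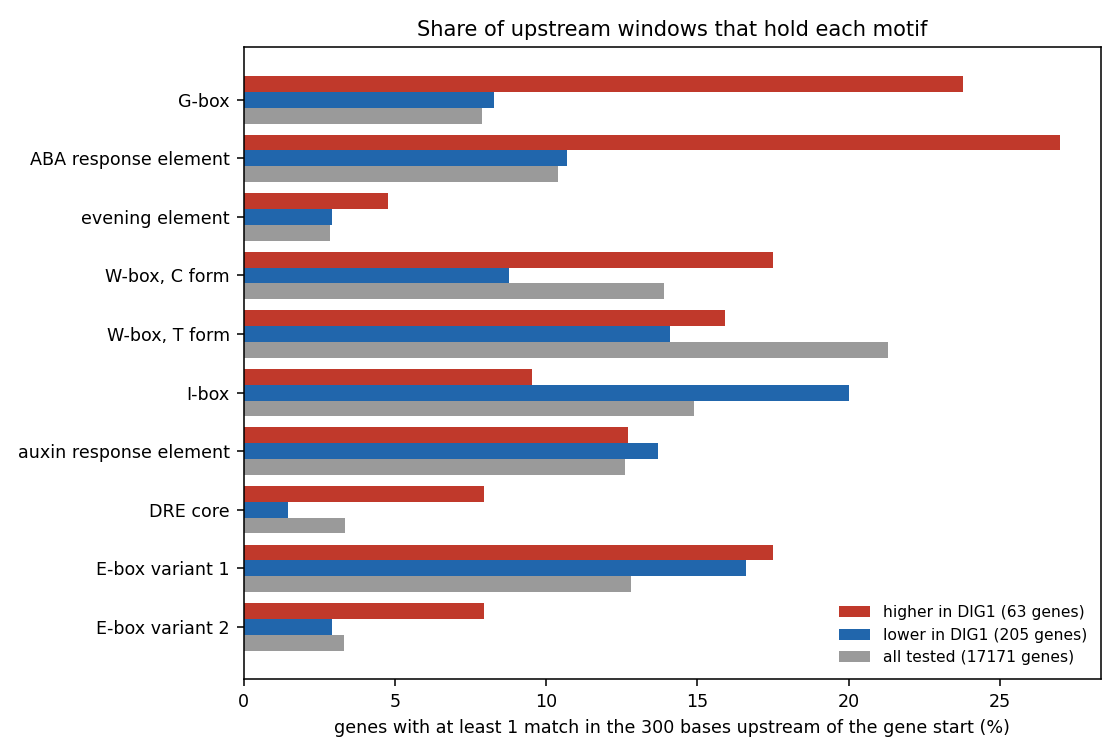
Percent of genes with at least 1 match to each motif in the 300 bases upstream of the gene start, for genes higher in DIG1 (red), lower in DIG1 (blue) and all tested genes (grey). The G-box bars read 23.8%, 8.29% and 7.89%.

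Several B-box and light-signalling genes were lower in the DIG1 line, and few genes of chlorophyll synthesis or the photosystems passed in either direction. Of 23 measured B-box genes 5 were lower in DIG1 and 2 higher, against 1.19% and 0.374% of all genes, with a median log2 difference of −0.165 over the list. Besides BBX23 and BBX17, BBX28 had 18.5 and 17.5 RPKM in DIG1 against 31.3 and 30.8 RPKM in DIG2, and BZS1, a B-box repressor of brassinosteroid growth, 14.8 and 15.7 RPKM in DIG1 against 24.9 and 26.5 RPKM in DIG2. COL1 also passed, a call lost without any of the 4 libraries. STH, a B-box partner of HY5, had 5.59 and 6.90 RPKM in DIG1 against 3.15 and 1.76 RPKM in DIG2, and COL2 6.05 and 6.31 RPKM in DIG1 against 3.43 and 2.29 RPKM in DIG2. The call of STH was lost without DIG1 replicate 2, and that of COL2 without either DIG1 replicate or DIG2 replicate 2. BBX14 had 15.6 and 18.8 RPKM in DIG1, 17.5 and 20.4 RPKM in DIG2 and 94.2 and 98.4 RPKM in GFP, so the large gap to GFP was not one between the DIG lines. Of 33 light-signalling genes, which include the phytochromes and PIF factors along with other receptors and regulators, 4 were lower and 0 higher, with a median of −0.124. No phytochrome gene passed, and none of PIF1, PIF3, PIF4 and PIF5 did. PIL1, a shade-induced bHLH factor, had 12.0 and 12.6 RPKM in DIG1, against 25.6 and 25.3 RPKM in DIG2 and 25.9 and 25.1 RPKM in GFP (−1.02 ± 0.11, limma adjusted p = 0.00402). ATHB2, a shade-avoidance homeobox factor, had 26.8 and 31.4 RPKM in DIG1 against 58.3 and 52.1 RPKM in DIG2. PHOT1, the blue-light receptor of phototropism, had 199 and 204 RPKM in DIG1 against 343 and 355 RPKM in DIG2, and PAR1, a shade-response inhibitor, 37.6 and 32.6 against 63.3 and 50.8 RPKM. The call of PHOT1 was lost without DIG2 replicate 2 and that of PAR1 without DIG1 replicate 2.

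Of 27 genes of chlorophyll synthesis, 1 was higher (PORC) and 1 lower (PORA) in DIG1, and 21 had a positive log2 difference, with a median of 0.182. PORC, the POR enzyme of light-grown tissue, had 36.2 and 44.2 RPKM in DIG1, against 23.1 and 28.1 RPKM in DIG2 and 53.1 and 59.3 RPKM in GFP (0.64 ± 0.13, limma adjusted p = 0.049), a call lost without DIG1 replicate 2 or DIG2 replicate 1. PORA and PORC thus lay on opposite sides between the lines. PORB had 498 and 451 RPKM in DIG1 and 551 and 774 RPKM in DIG2 and did not pass (limma adjusted p = 0.369). Of 53 photosystem and antenna genes 1 was higher, PPD1, and 0 lower, with a median of 0.151 that became −0.004 without DIG1 replicate 1. The call of PPD1 (AT4G15510, a PsbP-domain protein of photosystem I assembly), at 18.4 and 18.7 RPKM in DIG1 against 11.3 and 12.2 RPKM in DIG2, was lost without either DIG1 replicate. The next 3 genes were higher in DIG1, lie outside the lists and were picked after their values were seen, so they say nothing of plastid genes in general; COR413IM1, of the chloroplast envelope, was lower, a call lost without DIG1 replicate 2. CaS, a thylakoid calcium-sensing protein, had 95.3 and 114 RPKM in DIG1, against 55.2 and 63.7 RPKM in DIG2 and 196 and 182 RPKM in GFP. YCF37, of photosystem I assembly, had 48.3 and 47.2 RPKM in DIG1 against 28.0 and 30.3 RPKM in DIG2. PSB28 had 90.1 and 101 RPKM in DIG1 against 63.2 and 61.0 RPKM in DIG2, a call lost without DIG1 replicate 2. Of 15 photoprotection and carotenoid genes, ELIP2 was higher and COR27, a cold- and light-regulated night gene, lower, at 3.56 and 3.97 RPKM in DIG1 against 7.42 and 7.20 RPKM in DIG2, a call lost without DIG1 replicate 1.

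Genes of nitrogen use and of amino acid breakdown included several that were lower in DIG1. The shares over all genes tested, to set beside the counts below, were 1.19% lower and 0.374% higher. Of 49 genes of nitrate transport and assimilation 2 were lower, NRT2.6 and NRT1.8, and 0 higher, with a median of −0.057. NRT1.8 had 22.7 and 14.5 RPKM in DIG1, against 51.5 and 36.3 RPKM in DIG2 and 9.32 and 8.67 RPKM in GFP. The assimilation and transport genes otherwise had log2 differences from −0.63 to 0.56, and none of them passed. Of 51 amino acid transporter genes 3 were lower and 1 higher (UMAMIT25), with a median of −0.127. LHT1, an uptake carrier, had 74.7 and 58.9 RPKM in DIG1 against 131 and 98.9 RPKM in DIG2, and UMAMIT30 14.7 and 12.2 against 24.1 and 22.6 RPKM. The call of UMAMIT30 was lost without DIG1 replicate 2 and that of LHT1 without DIG1 replicate 2 or DIG2 replicate 1. Of 27 dark-inducible and catabolism genes 2 were lower and 0 higher, with a median of −0.218. BCAT-2, which starts branched-chain amino acid breakdown, had 130 and 124 RPKM in DIG1, against 279 and 211 RPKM in DIG2 and 105 and 84.1 RPKM in GFP. DIN2, a dark-inducible glucosidase, had 268 and 257 RPKM in DIG1, against 498 and 422 RPKM in DIG2 and 134 and 100 RPKM in GFP, a call kept only without DIG1 replicate 1 among the 4 removals and lost under median centring and quantile scaling. In both, DIG2 was highest and GFP lowest, and DIN2 is another of the highly expressed genes. In tyrosine breakdown, a list of 6 genes chosen after values were seen, 4 were lower in DIG1. TAT7, a tyrosine aminotransferase, had 17.1 and 20.003 RPKM in DIG1 against 34.6 and 31.4 RPKM in DIG2, and PDS1, the 4-hydroxyphenylpyruvate dioxygenase, 94.6 and 102 against 190 and 166 RPKM. HGO, the homogentisate dioxygenase of the next step, had 63.9 and 67.1 RPKM in DIG1 against 106 and 92.5 RPKM in DIG2. The calls of HGO and of the aminotransferase AT5G36160 were lost without DIG1 replicate 1 or DIG2 replicate 1.

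Auxin, brassinosteroid, jasmonate and wall genes were called almost wholly in the lower direction, with few calls in each list. Over all genes tested 206 were lower (1.19%) and 65 higher (0.374%), so the lower direction is not particular to these lists. Of 32 Aux/IAA and GH3 genes 2 were lower, GH3.1 and IAA20, and 0 higher, and 27 had a negative log2 difference, with a median of −0.243. Of 43 SAUR genes, small auxin-induced growth genes, 2 were lower and 0 higher, with a median of −0.234. SAUR9 had 9.96 and 11.3 RPKM in DIG1 against 19.0 and 20.2 RPKM in DIG2, and SAUR22 24.9 and 23.2 against 35.0 and 40.7 RPKM, a call lost without DIG1 replicate 2. Of 23 XTH genes, whose enzymes cut and rejoin xyloglucan, 3 were lower and 0 higher, with a median of −0.178. XTH15 had 611 and 470 RPKM in DIG1, against 1431 and 1267 RPKM in DIG2 and 1301 and 1510 RPKM in GFP. XTH19 had 67.0 and 67.7 RPKM in DIG1, against 136 and 150 RPKM in DIG2 and 138 and 185 RPKM in GFP, and both genes were thus displaced in the DIG1 line. XTH31 had 67.6 and 73.6 RPKM in DIG1 against 102 and 129 RPKM in DIG2. The call of XTH15 was lost without either DIG2 replicate and that of XTH31 without DIG1 replicate 1 or DIG2 replicate 2. Of 28 genes listed as pectin and wall enzymes PGAZAT and PME2, a pectin methylesterase at 10.08 and 11.3 RPKM in DIG1 against 19.9 and 19.6 RPKM in DIG2, were lower. The 28 include PLL1, PLL2, PLL4 and PLL5, which are annotated as poltergeist-like genes and are not wall enzymes, and none of them passed. Of 21 expansins EXPA2 was higher and 0 lower.

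Of 22 brassinosteroid genes KDR, a growth-promoting bHLH-type protein, was lower, at 116 and 83.4 RPKM in DIG1 against 167 and 164 RPKM in DIG2, a call lost without DIG1 replicate 2. Of 22 jasmonate genes JAZ4 and AOC1, a synthesis enzyme at 2.06 and 2.50 RPKM in DIG1 against 4.71 and 4.53 RPKM in DIG2, were lower, and the call of AOC1 was lost without any of the 4 libraries. Of 21 gibberellin genes 1 was higher, GA20OX1, a synthesis enzyme with 16.7 and 16.8 RPKM in DIG1, against 10.96 and 8.98 RPKM in DIG2 and 8.49 and 7.07 RPKM in GFP, a call lost without either DIG1 replicate. None of 33 ethylene genes passed by limma or voom. An unadjusted p under 0.05 was found for 13 of them, and for 2654 of all 17371 genes. A negative log2 difference was found for 27, with a median of −0.244 against −0.0001 over all genes. EIN3, the master factor of ethylene signalling, had 105 and 98.3 RPKM in DIG1 and 148 and 137 RPKM in DIG2 (limma adjusted p = 0.0704). None of 43 WRKY genes passed, with a median of −0.191, and none of 58 cell cycle genes, with a median of 0.178; in each list 12 had an unadjusted p under 0.05 and 0 passed by voom. None of 10 flavonoid genes passed by limma or voom, 7 had an unadjusted p under 0.05, and 9 had a positive log2 difference, with a median of 0.57. TT4, chalcone synthase, had 13.4 and 25.7 RPKM in DIG1 and 7.69 and 12.6 RPKM in DIG2, so the replicates differed nearly as much as the lines.

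**Figure D4:**
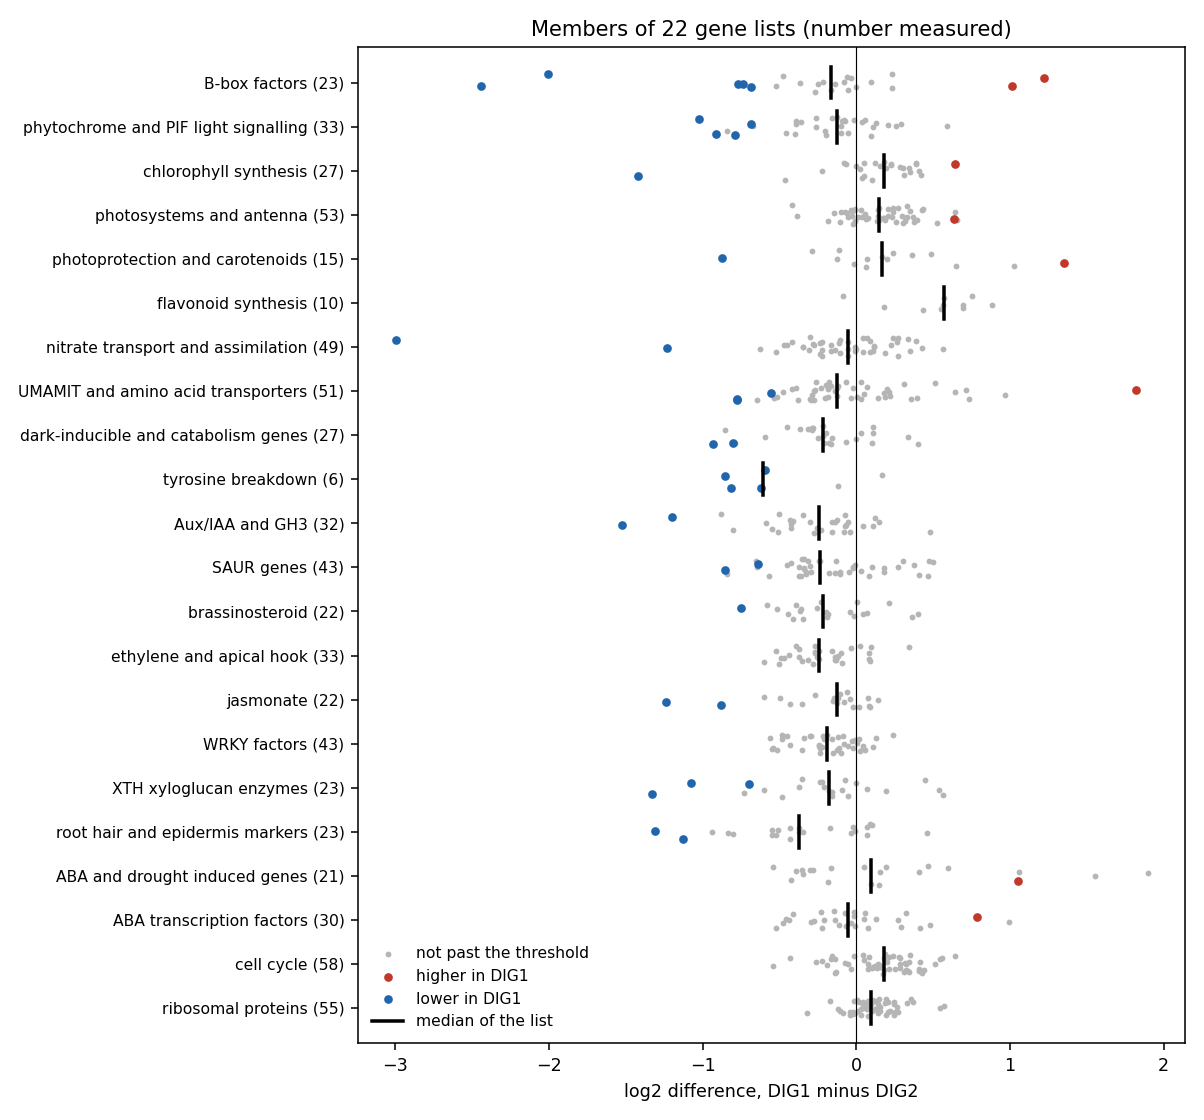
Log2 difference, DIG1 minus DIG2, of every measured member of 22 gene lists, 1 point a gene, with the number measured in brackets and a black bar at the median. Members past the threshold are red where higher and blue where lower in DIG1; B-box factors hold 7 such members, and flavonoid synthesis holds none although its median lies at 0.57.

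Root hair genes were lower in DIG1 in 2 cases out of 23 measured, RSL4 and TCL2, against 1.19% of all genes. The median of the list was −0.376. RSL4 had 1.40 and 1.03 RPKM in DIG1, against 3.38 and 4.09 RPKM in DIG2 and 4.83 and 6.62 RPKM in GFP (−1.31 ± 0.21, limma adjusted p = 0.0177). TCL2, a repressor of trichome fate, had 1.30 and 0.884 RPKM in DIG1, against 2.76 and 3.14 RPKM in DIG2 and 7.66 and 9.34 RPKM in GFP, a call lost without DIG1 replicate 2 or DIG2 replicate 2. In whole seedlings fewer cells of a type and less RNA per cell cannot be told apart. The summed level of the 23 root hair and epidermis markers was 206 and 212 RPKM in DIG1, 216 and 280 RPKM in DIG2 and 260 and 305 RPKM in GFP, and DIG2 replicate 2 was above DIG2 replicate 1 for 18 of them. Of 17 endodermis and stele markers RWP1 was higher and 0 lower, and their summed level was 941 and 842 RPKM in DIG1, 1069 and 1336 RPKM in DIG2 and 1045 and 1000 RPKM in GFP. That of 15 guard cell markers was 145 and 138 RPKM in DIG1 and 139 and 134 RPKM in DIG2. No measured marker was listed at 0 in any library. The part of a differing share of root tissue in these results was not tested, and without DIG2 replicate 2 the root hair median was −0.178.

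Within the ABA pathway few genes separated the lines, and the largest gaps came from 1 library. None of 8 measured ABA receptor genes, 10 SnRK2 kinases and 9 genes of ABA synthesis and breakdown passed by limma or voom. In these lists 2, 2 and 0 had an unadjusted p under 0.05, against 2654 of all 17371 genes. Of 6 clade A phosphatases, which switch the pathway off, ABI1 was lower, at 26.0 and 30.6 RPKM in DIG1, against 42.4 and 42.7 RPKM in DIG2 and 36.4 and 53.4 RPKM in GFP (−0.58 ± 0.11, limma adjusted p = 0.0361), a call lost without DIG1 replicate 1. Of 30 ABA transcription factor genes NAC102 was higher, at 13.2 and 13.5 RPKM in DIG1 against 7.92 and 7.17 RPKM in DIG2, a call lost without either DIG1 replicate. Of 21 ABA- and drought-induced genes KIN2 alone passed, in the higher direction, and 0 passed by voom; the call of KIN2 was also lost without either DIG1 replicate or DIG2 replicate 2. DIG1 replicate 1 stood apart in several ABA-linked and seed-type genes. RAB18 (AT5G66400), a dehydrin, had 242 and 3.23 RPKM in DIG1, against 9.69 and 5.93 RPKM in DIG2 and 5.58 and 2.75 RPKM in GFP. LEA4-5, a late embryogenesis protein, had 93.7 and 4.07 RPKM in DIG1 against 6.47 and 6.68 RPKM in DIG2, and ABI3, the seed maturation factor, 4.83 and 0.538 against 0.625 and 0.744 RPKM. ICL, isocitrate lyase of the glyoxylate cycle, had 1764 and 586 RPKM in DIG1 against 1033 and 1632 RPKM in DIG2. Its DIG1 replicates were far apart, but DIG1 replicate 1 lay near DIG2 replicate 2. None of these genes passed with all libraries, and the log2 difference of RAB18 was 1.89 with them and −1.12 without DIG1 replicate 1, that of LEA4-5 1.55 and −0.63. The median of the ABA- and drought-induced list was likewise 0.096 with all libraries and −0.16 without DIG1 replicate 1. LTI65, an ABA-induced gene, had 21.8 and 5.10 RPKM in DIG1, against 14.5 and 13.8 RPKM in DIG2 and 2.85 and 1.93 RPKM in GFP; its log2 difference was −0.39 with all libraries and −1.39 without DIG1 replicate 1, where it passed (limma adjusted p = 0.00272).

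**Figure D5:**
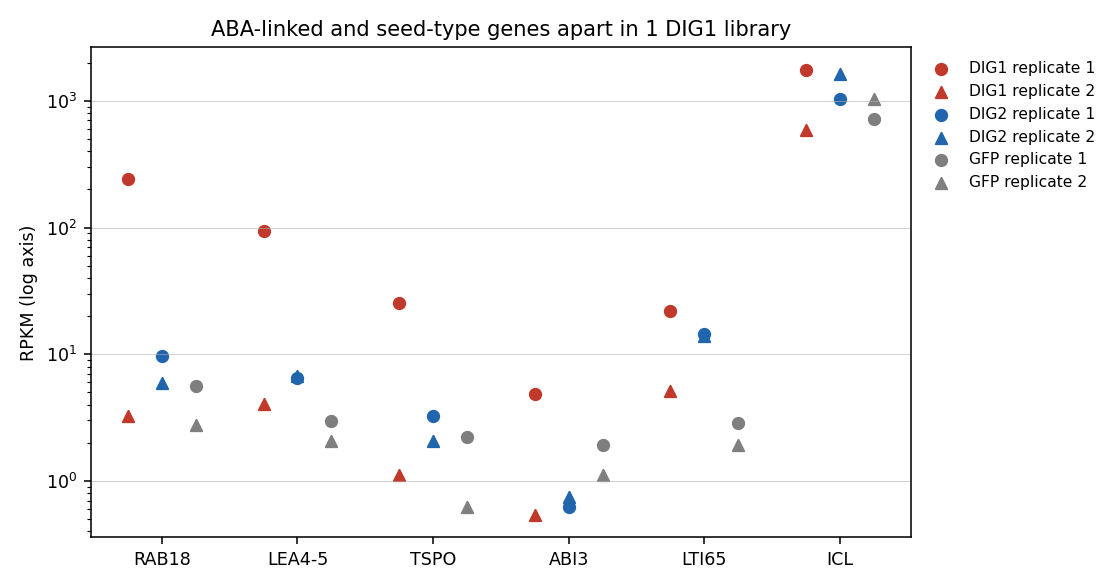
RPKM of 6 ABA-linked and seed-type genes in each library on a log axis, with circles for replicate 1 and triangles for replicate 2 of DIG1 (red), DIG2 (blue) and GFP (grey). DIG1 replicate 1 lies at 242 RPKM for RAB18, where the other libraries lie between 2.75 and 9.69 RPKM.

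The remaining lists held few or no calls. Of 20 clock genes CCA1 was higher and 0 lower, and of 29 glutathione transferase genes GSTF6 was higher and 0 lower. Of 12 salicylic acid and PR genes PR1 was the only call, and of 17 sulfate genes APR2, a sulfate-reducing enzyme, was higher, at 22.01 and 22.1 RPKM in DIG1 against 13.1 and 13.7 RPKM in DIG2. No member passed among 19 genes of ammonium and amino acid metabolism, 18 Calvin cycle genes, 24 genes of auxin transport and synthesis, 9 cytokinin genes, 18 glucosinolate genes, 14 phosphate starvation genes, 14 iron genes, 19 histones, 44 heat shock genes, 9 cold and touch genes, 19 genes of seed lipid breakdown, 15 guard cell markers, 55 ribosomal protein genes and 29 genes listed as aquaporins, by limma, and the median log2 differences of these named lists lay between −0.221 and 0.169. The 29 include BRX, which is not an aquaporin and was matched through a shared name. Over all lists without a call, 102 of 478 members had an unadjusted p under 0.05, against 2654 of all 17371 genes. By voom on recovered reads 4 of these members passed, against 307 of all genes. A p that misses the threshold does not show that the lines acted alike for these genes.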

How the data were processed

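RNA from whole seedlings was sequenced as stranded mRNA libraries. The authors deposited one RPKM value per gene and library in a table for this treatment, together with their own log2 fold changes and false discovery rates (adjusted p-values), per the file headers; those columns, a pair for each DIG line, were not used here. TAIR10, HTSeq 0.5.4 and edgeR 3.6.2 are named in the submitters' processing notes, without their roles; the aligner is not given in the sources used here. Values of GFP replicate 1 share a field with the gene name in the deposited table and were split at the space.

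The DIG1 minus DIG2 difference was fitted with limma 3.58.1 in R 4.3.3 on log2(RPKM + 0.5), two-sided, with a variance trend, over the 17371 genes listed and 4 libraries, with Benjamini-Hochberg adjustment and a threshold of 0.05. The listed RPKM values were whole multiples of 1 read within 0.001 read for 100% of genes, and the recovered reads served voom as an alternative. Named genes were the DIG family, the 15 with a symbol, a mean of at least 1 RPKM, no overlap between lines and the largest called difference in each direction, and up to 3 called members of each list. The members and lists were chosen with earlier results of these data known. List names that failed to match were corrected by identity after list counts were seen, which changed no called count. Names that matched a gene of another kind, such as PLL1, PLL2, PLL4, PLL5 and BRX, were left in their lists. The tyrosine list, the 300-base window, the windows shown and the removal of the DIG loci from the motif sets were set after values were seen. Sequences are from RefSeq TAIR10.1; 17305 of the listed genes matched its annotation. Alternatives were other pseudocounts, a floor of 1 RPKM, no trend, median centring, quantile scaling, 6 libraries in one fit, a replicate block, voom and leaving out each library. The sequence of 1 upstream window is not reported here.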

Additional observations from a re-analysis of the deposited data

How the results depend on the processing

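The main counts were 65 genes higher and 206 lower in DIG1. Without the variance trend they were 10 and 32, and with the GFP libraries in the same fit 108 and 302. Leaving out 1 library at a time gave 51 to 188 higher and 161 to 328 lower; the causes were not tested, beyond the fewer samples in those fits. Without DIG2 replicate 1 the counts were 159 and 328, and without DIG2 replicate 2 they were 188 and 269. Under the other pseudocounts, the 1 RPKM floor, median centring, quantile scaling and voom they stayed between 60 and 78 higher and between 174 and 229 lower. No replicate numbers pair these samples by the labels, and same-numbered libraries deviated from their group means with a correlation of −0.009 across genes; the fit with a replicate block called 84 and 240, without XTH15, AOC1 and DIN2 among the named calls. The fit without the variance trend kept 17 of the 57 named calls and lost 40, among them PGAZAT, GH3.1, NRT1.8, BCAT-2, PME2, EXPA2, PR1 and CCA1. Median centring lost DIN2, KDR and PORC, and voom lost TCL2, AOC1, SAUR22 and KIN2. Quantile scaling lost DIN2, LHT1, XTH31, ABI1, MRL7-L, CNGC12 and COL2. Among genes at least 2-fold lower the G-box share was 13.7%, against 8.29% of all lower genes. The alternatives reused the libraries that gave the calls, so called genes had little room to change sign. All 271 calls kept their sign under every alternative, and of 57 named calls 14 passed under all 13 of them. Of 47 lists with at least 5 members, 34 kept the sign of their median in each fit without 1 library. With 2 libraries a line and the DIG1 libraries the shallowest, differences among genes of few reads were resolved least.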
